A study of Mus musculus with 9 samples.

Results

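Keratins are the intermediate filament proteins of epithelia, and 10 keratin genes that mark basal or luminal cells were followed in MyC-CaP cells treated with ASPN. MyC-CaP is a mouse prostate cancer line, and ASPN (asporin) is a protein secreted by fibroblasts of the tumor stroma. The genes were chosen by name: the basal keratins Krt5, Krt14, Krt15 and Krt17, the simple (luminal) keratins Krt7, Krt8, Krt18, Krt19 and Krt20, and Krt80, which was kept apart. All 10 were among the 15384 protein-coding genes of the count table, which holds 30 other keratin genes.

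A keratin filament is built from pairs of a type I and a type II chain. Krt5, Krt7, Krt8 and Krt80 are type II chains, and Krt14, Krt15, Krt17, Krt18, Krt19 and Krt20 are type I chains. In the prostate, basal cells are known for Krt5 and Krt14, and luminal cells, whose features most prostate adenocarcinomas carry, for Krt8 and Krt18. The type II genes lie together on chromosome 15 and the type I genes on chromosome 11, except Krt18, which lies beside Krt8 in the type II cluster.

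RNA-Seq counts were available for 9 libraries: 3 at time 0, 3 at 12 hours and 3 at 24 hours with 100 ng/mL recombinant mouse ASPN. Before treatment the cells were kept for 6 to 12 hours without serum and calcium, and the time 0 libraries carry the ASPN-treated label like the others. The 9 libraries include no buffer-treated cells of 12 or 24 hours, so ASPN and the hours in culture cannot be told apart in any comparison with time 0. The libraries of a time are called biological replicates of a single cell line and came from wells plated in triplicate, and p-values measure the spread between such wells. Totals were 41881191 to 52993821 counts per library. In bulk RNA, fewer cells that express a gene and less RNA per cell cannot be told apart.

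The labels describe the cells as epithelial-like prostate cancer cells, and the markers were mixed. Among luminal markers, Foxa1 had 225.5 to 239.8 CPM (counts scaled to library size with TMM factors) at time 0 and 87.7 to 95.3 at 24 hours, Cd24a had 58.4 to 64.2 and 81.9 to 90.1, and Krt18 had 2 to 22 counts in all 9 libraries. The epithelial adhesion genes Epcam, Cdh1 and Cldn7 had 0 to 1, 0 to 10 and 0 to 2 counts, while Cldn4, a tight junction gene, had 166 to 265, and Trp63, the basal regulator, had 0 to 13. Summed levels of 4 fibroblast markers were 9.09 to 14.1 CPM. Nearly all of this was Pdgfra (8.55 to 13.8 CPM), and Col1a1, Dcn and Pdgfrb were each under 1 CPM. Summed levels of leukocyte, endothelial, neuroendocrine and urothelial markers were under 1 CPM in all 9 libraries.

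Krt8 and Krt18 encode the partner chains of the luminal filament and lie head to head, with starts 23.7 kb apart, yet their mRNA levels in these cells were far apart. Their promoters are shown for that reason, from RefSeq on GRCm38.p6, with 250 bases before the annotated start in lower case and the first 30 transcribed bases in capitals. RefSeq windows were found for 6 of the 10 genes (Krt5, Krt7, Krt8, Krt14, Krt18 and Krt20).
Krt8 (chr15:102004313-102004592, minus strand): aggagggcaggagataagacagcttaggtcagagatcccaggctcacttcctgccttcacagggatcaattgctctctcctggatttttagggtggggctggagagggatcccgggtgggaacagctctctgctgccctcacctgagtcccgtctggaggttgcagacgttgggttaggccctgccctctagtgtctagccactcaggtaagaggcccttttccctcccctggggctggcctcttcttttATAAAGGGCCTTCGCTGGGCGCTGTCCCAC
Krt18 (chr15:102027966-102028245, plus strand): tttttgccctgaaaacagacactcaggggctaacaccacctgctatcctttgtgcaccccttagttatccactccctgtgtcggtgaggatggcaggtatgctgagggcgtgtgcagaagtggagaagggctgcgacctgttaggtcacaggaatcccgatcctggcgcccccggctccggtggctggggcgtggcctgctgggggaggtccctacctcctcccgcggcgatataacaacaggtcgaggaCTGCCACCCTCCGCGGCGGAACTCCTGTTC
The window of Krt18 (300 bases, to 50 bases past the start) held 17 CpG dinucleotides and that of Krt8 held 6, against a median of 7 over 32851 promoters. The letters TATAAA, searched on both strands, matched in the Krt8 window at 2 overlapping positions across the annotated start and did not match in the Krt18 window, and 13.6% of all promoters held them. Neither window held GGGCGG (35.7% of all promoters), TGANTCA (7.81%) or CACGTG (7.15%). These matches describe letters only and were not tested for binding.

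The 10 genes fell into 5 abundant and 5 nearly silent ones. Levels between genes were compared as CPM per kilobase of exon. At time 0, Krt15 stood highest at 61.5 CPM per kilobase and Krt19 next at 48.2, with overlapping libraries. Krt7 (19.9), Krt80 (16.3) and Krt8 (13.0) followed, each apart from its neighbors in all 3 libraries. The other genes were lower by orders of magnitude, with Krt18 at 0.163, Krt17 at 0.0847, Krt14 at 0.0228 and Krt20 at 0.0215 CPM per kilobase. Krt18 and Krt17 overlapped, as did Krt14 and Krt20, and Krt5 had no count at time 0. At 24 hours Krt19 came first (74.6) and Krt15 second (66.5), again with overlapping libraries. Krt8 (19.4) then stood beside Krt80 (17.9), and these overlapped too. With the longest transcript as length, Krt7 (34.2 at time 0) and Krt80 (26.6) came out higher and the order at time 0 was the same, whereas at 24 hours Krt80 (29.2) stood above Krt8.

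**Figure D1:**
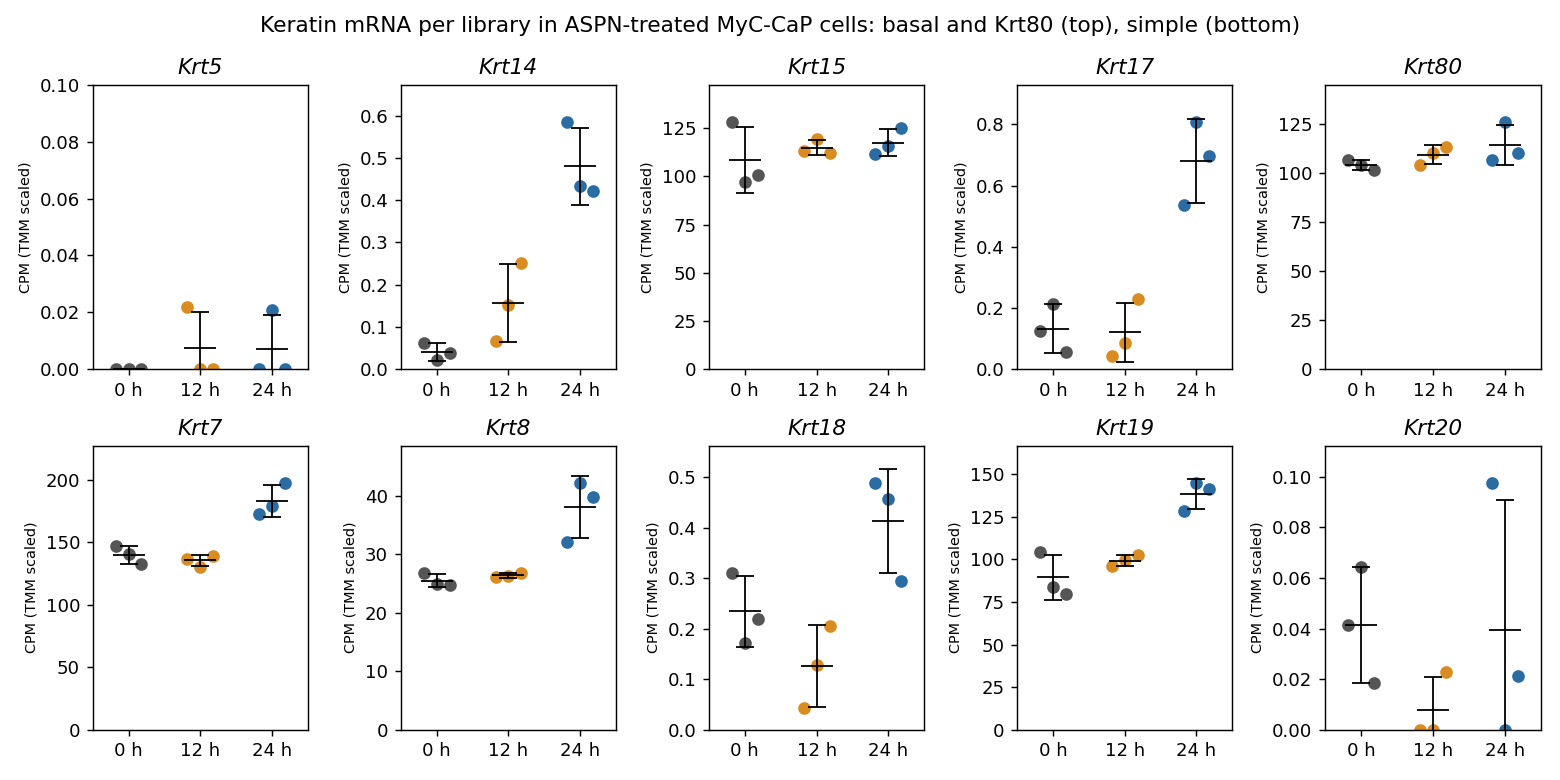
TMM-scaled CPM (linear axes from 0, each panel with its own scale) of the 10 keratin genes in each of the 9 libraries (points) at 0, 12 and 24 hours, with mean and SD over 3 libraries (bars). The 24-hour libraries of Krt7, Krt8, Krt14, Krt17 and Krt19 all lie above those of time 0, and the panels of Krt5 and Krt20 rest on 0 to 4 counts per library.

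Among the simple keratins, the 3 abundant genes were higher at 24 hours and showed little difference at 12 hours. Krt19, a type I chain without a tail domain (chr11:100140810-100148665, GRCm38), was measured at 104.6, 84.0 and 79.5 CPM at time 0, at 96.1, 99.4 and 102.3 CPM at 12 hours and at 128.4, 145.0 and 141.6 CPM at 24 hours. Every 24-hour library lay above all others, while the 12-hour libraries fell within the range of time 0. Krt19 rose by 0.64 on the log2 scale at 24 hours over time 0 (SE 0.08, adjusted p = 1.3e-05, edgeR's quasi-likelihood test, adjusted over all tested genes by Benjamini-Hochberg), or 1.55-fold. The fold was below the limit of 1.5 under total-count scaling (log2 0.42), with a correction for length and GC content (0.57, or 0.58 with the replicate block) and without time 0 replicate 3 (0.57).

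Krt7, a type II chain of simple and glandular epithelia (chr15:101411043-101430313), had 146.9, 140.5 and 132.5 CPM at time 0, 136.7, 130.5 and 139.2 at 12 hours and 172.7, 178.9 and 197.7 at 24 hours. The lowest 24-hour library was above the highest of the other times. Its log2 fold change at 24 hours over time 0 was 0.39 (SE 0.05, edgeR adjusted p = 2.4e-05), past the test but under 1.5-fold. It was 0.17 under total-count scaling and 0.62, past both limits, with the correction for length and GC content.

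Krt8, the type II chain of the luminal pair (chr15:101996698-102004482), had 26.7, 24.9 and 24.8 CPM at time 0, 26.1, 26.2 and 26.8 at 12 hours and 32.1, 42.2 and 39.8 at 24 hours. The 24-hour libraries were all highest, and replicate 1 was the lowest of them. The log2 fold change at 24 hours over time 0 was 0.5846 (SE 0.09, edgeR adjusted p = 3.6e-05), just under the limit of 0.585 that stands for 1.5-fold, so Krt8 was not called. It passed the limit in 4 of 11 alternatives, which ranged from 0.36 (total-count scaling) to 0.62, and without 24-hour replicate 1 (0.69) or time 0 replicate 1 (0.64). Of its 75-base stretches, 23.5% also occur in other annotated genes, among them the pseudogene Krt8-ps and Gm36026, which overlaps it on the opposite strand, so its counts are uncertain to that extent.

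Krt18, the type I partner of Krt8 (chr15:102028180-102032027), was close to silent. It had 15, 8 and 12 counts at time 0, 2, 6 and 9 at 12 hours and 20, 22 and 14 at 24 hours. The 12-hour and 24-hour libraries did not overlap, and both overlapped time 0. Summed over a time, 35, 17 and 56 counts gave a ratio of 0.533 for 12 hours over time 0 (95% exact interval 0.280 to 0.978) and 1.75 for 24 hours over time 0 (1.13 to 2.75). These intervals cover counting error only. In the fit over libraries the log2 fold change at 24 hours over time 0 was 0.81 (SE 0.42, edgeR adjusted p = 0.097), and it did not pass the test.

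Per kilobase, Krt8 mRNA exceeded Krt18 mRNA 84.1-fold at time 0 (SD 21.9, n = 3), 227.3-fold at 12 hours (SD 183.6) and 71.7-fold at 24 hours (SD 25.5). The libraries ranged from 63.0 to 106.6 at time 0, from 95.7 to 437.0 at 12 hours and from 48.2 to 98.8 at 24 hours, and the few Krt18 counts set this spread. Krt20, a keratin of intestinal and urothelial cells (chr11:99428403-99438150), had 2, 3 and 1 counts at time 0, 0, 0 and 1 at 12 hours and 4, 0 and 1 at 24 hours. No difference in Krt20 was detectable at this depth, with a ratio of 24 hours over time 0 of 0.910 (95% exact interval 0.220 to 3.58, counting error only).

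Among the basal keratins, a single gene carried nearly all of the mRNA. Krt15, a type I chain of basal and stem-like cells (chr11:100131758-100135928), had 128.3, 96.9 and 100.6 CPM at time 0, 113.0, 119.6 and 112.4 at 12 hours and 111.5, 115.9 and 125.1 at 24 hours. The 3 times overlapped, and time 0 replicate 1 was the highest library of all. The log2 fold change was 0.09 at 12 hours (SE 0.07, edgeR adjusted p = 0.56) and 0.12 at 24 hours (SE 0.09, adjusted p = 0.23). Under total-count scaling the 24-hour value was -0.10. Krt15 made up 99.8% of the basal keratin mRNA per length at time 0 (SD 0.0888, n = 3) and 98.9% at 24 hours (SD 0.103).

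Krt14, the classical type I chain of basal cells (chr11:100203162-100207548), had 3, 1 and 2 counts at time 0, 3, 7 and 11 at 12 hours and 24, 21 and 20 at 24 hours. In counts, the 24-hour libraries stood above all others. Its log2 fold change at 24 hours over time 0 was 3.49 (SE 0.57, edgeR adjusted p = 7.9e-05), the largest of the 8 tested genes. Krt14 entered the test through the 24-hour libraries and had at most 3 counts at time 0, so the size of this value is uncertain. The summed counts of 65 against 6 gave a ratio of 11.8 (95% exact interval 5.15 to 33.4, counting error only). At 24 hours over 12 hours it was 1.63 (SE 0.48, adjusted p = 0.0071). The 12-hour libraries were also above time 0 in CPM (0.0656, 0.151 and 0.251 against 0.0623, 0.0214 and 0.0367), a difference that was too low in counts to enter the test. In counts these times were not apart, since replicate 1 had 3 at both. Of all tested genes, 13.4% lay wholly above time 0 at 12 hours. Even at 24 hours the mean level was 0.481 CPM (SD 0.0914, n = 3). Of its 75-base stretches, 5.91% are shared with other genes, Krt16 among them.

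Krt17, a type I chain known for its induction in wounded and hyperproliferative epithelium (chr11:100256217-100261029), had 6, 10 and 3 counts at time 0, 2, 4 and 10 at 12 hours and 22, 39 and 33 at 24 hours. The first 2 times overlapped, and every 24-hour library was above both. Krt17 rose at 24 hours by 2.40 on the log2 scale over time 0 (SE 0.46, edgeR adjusted p = 0.00033) and by 2.53 over 12 hours (SE 0.49, adjusted p = 0.00037). The summed counts of 94 against 19 gave a ratio of 5.40 for 24 hours over time 0 (95% exact interval 3.28 to 9.37, counting error only). Krt5, the type II partner of Krt14 (chr15:101707070-101712898), had 1 count in a 12-hour library, 1 in a 24-hour library and 0 in the other 7. The floor of 3 counts in a library stands for 0.0566 to 0.0716 CPM, so Krt5 was not detectable above that level.

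Krt80, a type II chain of differentiating and simple epithelia (chr15:101347444-101370162), had 106.6, 104.2 and 101.4 CPM at time 0, 103.9, 110.5 and 113.4 at 12 hours and 106.6, 126.1 and 110.4 at 24 hours. The 3 times overlapped. Its log2 fold change at 24 hours over time 0 was 0.14 (SE 0.06, edgeR adjusted p = 0.04), under 1.5-fold. It was -0.08 under total-count scaling and 0.36 with the correction for length and GC content.

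At 12 hours over time 0, 5 of the 10 genes had enough counts to be tested, and edgeR's quasi-likelihood test called 0 of them, where 1.60% of 11410 tested genes were called (1.5% higher and 0.0964% lower). By adjusted p alone 0 passed, where 10.3% of all tested genes did. DESeq2 and limma-voom called 0 as well. At an unadjusted p under 0.05 there was 1, Krt19, higher by 0.16 on the log2 scale (SE 0.07, edgeR adjusted p = 0.21). Without time 0 replicate 1, the highest time 0 library for Krt7, Krt8, Krt15, Krt19 and Krt80, the log2 fold change of Krt19 was 0.29 and that of Krt15 was 0.23. Their adjusted p-values were then 4.8e-06 and 8.1e-05 by edgeR, and both stayed under 1.5-fold.

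At 24 hours over time 0, 8 genes were tested and 3 were called, all higher (Krt14, Krt17 and Krt19), against 28.8% of 11444 tested genes called in either direction, 12.0% higher and 16.8% lower. Krt14, Krt17 and Krt18 entered the test through the 24-hour libraries, where they were highest, so this count is a description and not support for a shared direction. By adjusted p alone 6 of 8 passed, near the 70.9% of all tested genes. The 3 libraries lay wholly above those of time 0 for 5 of the 8 genes and wholly below for 0, where 73.9% of all tested genes did not overlap, 35.6% above and 38.3% below. At 24 over 12 hours, 3 of 8 genes were called, all higher (Krt14, Krt17 and Krt18), against 25.7% of 11394 tested genes in either direction, 10.4% higher and 15.3% lower. By adjusted p alone 6 of 8 passed, where 71.3% of all tested genes did. Without overlap 6 of 8 lay above, where 73.9% of all tested genes did not overlap, 35.5% above and 38.5% below. Krt18 was 1.71 higher on the log2 scale in this comparison (SE 0.53, edgeR adjusted p = 0.0096). Krt7, Krt8 and Krt19 differed by 0.46, 0.55 and 0.50 with adjusted p-values of 1.7e-06, 3.8e-05 and 4.6e-07, all under 1.5-fold. Krt7 was called in 2 of 11 alternatives (which ranged from 0.23 to 0.68), both with the length and GC correction. Krt8 was called in 0 of 11 and in 1 of 6 fits with a library left out (0.66, without 24-hour replicate 1). The comparisons share libraries, and their values are given side by side.

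**Figure D2:**
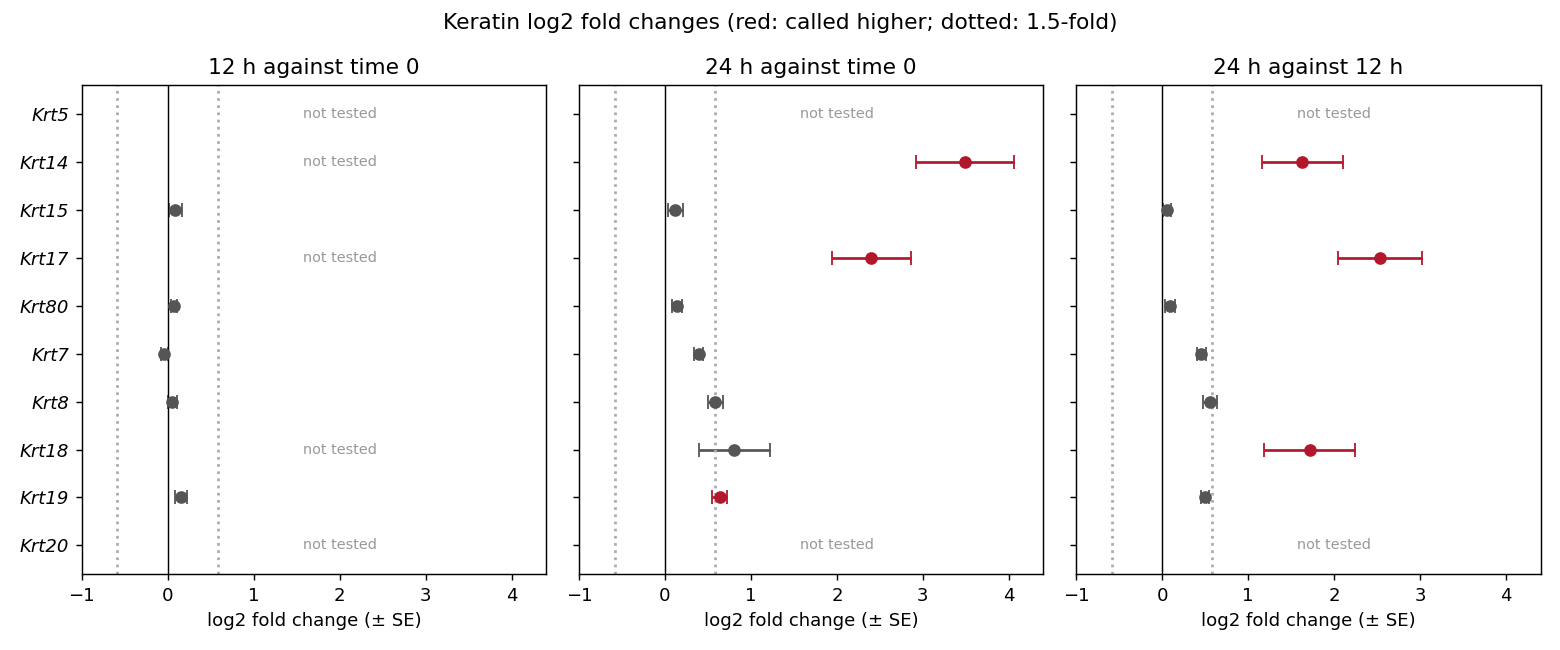
log2 fold change with SE (edgeR) of the 10 keratin genes in 3 comparisons of 3 against 3 libraries, where red marks genes called higher, dotted lines mark 1.5-fold and genes with too few counts are written as not tested. Krt14 (3.49) and Krt17 (2.40) have the largest values at 24 hours over time 0 and also the widest errors, and the 5 abundant genes lie between 0.12 and 0.64.

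The make-up of the keratin mRNA differed between the times. Basal over simple keratin mRNA per length was 0.756 at time 0 (SD 0.0477, n = 3), 0.757 at 12 hours (SD 0.0362) and 0.560 at 24 hours (SD 0.0263). The 24-hour libraries (0.529 to 0.577) lay below those of time 0 (0.704 to 0.798). The basal sum is nearly all Krt15, whose level overlapped between the times, and the simple sum is Krt7, Krt8 and Krt19. Without Krt15, the basal over simple ratio was 0.00132 at time 0 (SD 0.000587) and 0.00596 at 24 hours (SD 0.000381). Type II over type I mRNA of the 10 genes was 0.452 (SD 0.0495), 0.419 (SD 0.0125) and 0.445 (SD 0.0144) at the 3 times, with overlapping libraries between time 0 and 24 hours. By CPM without length it was 1.37, 1.26 and 1.30, so which type was in excess depended on the use of length. Basal over simple was then 0.425, 0.442 and 0.330. No test was run on these sums.

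Over all 40 keratins of the table the picture was set by Krt4, a type II chain of stratified mucosa. Krt4 made up 68.9% of keratin mRNA per length at time 0 (SD 1.98, n = 3), 64.4% at 12 hours (SD 0.935) and 52.2% at 24 hours (SD 0.921). The 10 genes made up 25.9% (SD 1.69), 29.4% (SD 0.557) and 41.8% (SD 0.594). Type II over type I mRNA of all keratins was 4.35 (SD 0.475), 3.61 (SD 0.121) and 2.32 (SD 0.0441). Keratin counts were 0.153%, 0.142% and 0.110% of all counts at the 3 times.

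**Figure D3:**
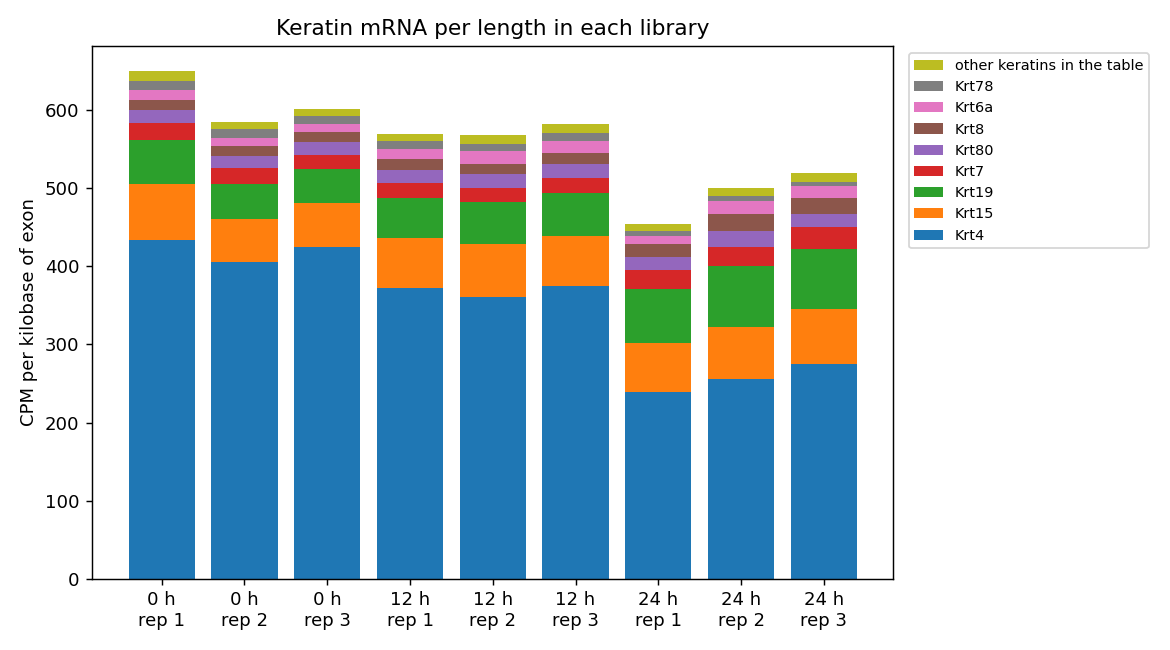
Stacked CPM per kilobase of exon (linear axis from 0) of the keratin genes in each of the 9 libraries, with the 8 most abundant genes in colors of their own. The Krt4 part shrinks from 68.9% of the bar on average at time 0 to 52.2% at 24 hours. In CPM per kilobase, the mean heights of the Krt19 (48.2 to 74.6) and Krt7 (19.9 to 26.0) parts grow, and that of Krt15 stays near its size (61.5 to 66.5).

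Of the 30 other keratins, 15 were tested at 12 hours and 1 was called (1.60% of all tested genes were), Krt81, a hair keratin at low level that rose by 1.88 on the log2 scale (SE 0.49, edgeR adjusted p = 0.018). The call was lost without time 0 replicate 1, 12-hour replicate 2 or 12-hour replicate 3 (adjusted p of 0.062 to 0.099). At 24 hours over time 0, 17 were tested, 4 rose and 3 fell (12.0% and 16.8% of all tested genes did), with a median log2 fold change of 0.04 beside -0.02 over all tested genes. Krt4 fell by 0.71 on the log2 scale (SE 0.05, adjusted p = 4.9e-08), from 898.5 CPM (SD 30.0, n = 3) to 547.2 (SD 38.9). Krt78, another type II chain, fell by 1.03 (SE 0.07, adjusted p = 1.7e-08), from 38.3 to 18.6 CPM. Krt83, a hair keratin, fell by 0.97 (SE 0.26, adjusted p = 0.0047), but by 0.54 without time 0 replicate 1, which is under 1.5-fold. Krt16, Krt23, Krt81 and Krt88 rose from levels under 1 CPM, and the libraries of Krt16 overlapped between the times. Krt81 and Krt88 entered the test through the later libraries, where they were highest, as Krt14 and Krt17 did. The call of Krt16 was lost with DESeq2 (adjusted p = 0.35), under total-count scaling (adjusted p = 0.078) and without any of 4 libraries (time 0 replicate 1 or 2, 24-hour replicate 2 or 3, adjusted p of 0.097 to 0.18). That of Krt23 was lost under total-count scaling (adjusted p = 0.088), with the replicate block (0.059), with the length and GC correction (0.052), with both (0.1), without time 0 replicate 2 (0.081) and without 24-hour replicate 2 (0.18). Krt6a, the keratin of activated epidermis, ranged over 24.8 to 29.2 CPM at time 0. It ranged over 32.2 to 40.1 CPM at 12 hours, then over 27.2 to 42.7 at the last time. At 12 hours all 3 libraries were above time 0 and the log2 fold change was 0.49 (SE 0.07, edgeR adjusted p = 0.00023), at 24 hours 0.44 (SE 0.12, adjusted p = 0.0059), both under 1.5-fold. Krt13, Krt32, Krt36 and Krt79 had 1.23 to 4.45 CPM on average and were not called. Krt6a shares 50.7% of its 75-base stretches with other genes and Krt81 shares 35.5%, so their counts are uncertain.

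Keratin filaments are held at desmosomes and hemidesmosomes. Of 18 genes of these junctions, 15 were in the table and 11 were tested. At 12 hours over time 0 edgeR called 0 of them, where 1.60% of all tested genes were called. At 24 hours over time 0, 1 rose and 2 fell, a share near the 28.8% of all tested genes, with a median log2 fold change of -0.40 beside -0.02 over all tested genes. Plec, plectin, which links filaments to hemidesmosomes, fell by 1.65 on the log2 scale (SE 0.08, adjusted p = 1.7e-09), from 430.3 CPM (SD 27.0, n = 3) to 136.9 (SD 20.2), and by 0.79 with the correction for length and GC content. Evpl, envoplakin, fell by 0.90 (SE 0.06, adjusted p = 9.2e-09), but by 0.23 with that correction, which is under 1.5-fold. Pkp2, a desmosomal plakophilin, rose by 0.94 (SE 0.06, adjusted p = 9.4e-09), from 78.1 to 149.3 CPM. Under total-count scaling, 7 of these genes were called in place of 3, 1 of them higher, and of all 11444 tested genes 698 were then called higher and 3008 lower.

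Of 16 other intermediate filament genes, 14 were in the table and 7 were tested. Of these, 2 rose and 2 fell at 24 hours over time 0, where 12.0% and 16.8% of all tested genes did, and the median was -0.21 on the log2 scale beside -0.02 over all tested genes. Vim, vimentin, the filament protein of mesenchymal cells, had 230.0 CPM at time 0 (SD 4.06, n = 3), 231.9 at 12 hours (SD 8.98) and 443.7 at 24 hours (SD 5.77). It rose at 24 hours over time 0 by 0.95 on the log2 scale (SE 0.04, edgeR adjusted p = 2.8e-10). Sync, syncoilin, rose by 1.52 at 12 hours and by 2.35 at 24 hours over time 0, from 0.250 CPM (adjusted p = 0.0056 and 0.00018). Synm, synemin, fell at 24 hours by 1.18 (SE 0.05, adjusted p = 6.4e-10), or by 0.76 with the length and GC correction, and Gfap, at under 1 CPM, fell by 0.95 (SE 0.32, adjusted p = 0.016). The call of Gfap was lost without time 0 replicate 1 or 2 or 24-hour replicate 2 (adjusted p of 0.054 to 0.065) and with the length and GC correction together with the replicate block (adjusted p = 0.056).

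Of 15 transcription factor genes that are known to control keratin or epithelial genes, 14 were in the table and 12 were tested against time 0. At 12 hours 2 rose and 0 fell, where 1.5% and 0.0964% of all tested genes did. Elf3, an epithelial ETS factor, rose by 2.09 on the log2 scale at 12 hours (SE 0.08, edgeR adjusted p = 1.4e-11), from 13.2 CPM (SD 0.664, n = 3) to 56.3 (SD 8.20), and stood at 33.1 CPM (SD 4.5) at 24 hours. Ehf, of the same family, rose by 1.55 at 12 hours and by 1.81 at 24 hours. At 24 hours over time 0, 3 rose and 5 fell (12.0% and 16.8% of all tested genes did), and the median was -0.30 beside -0.02 over all tested genes. Foxa1, a pioneer factor of luminal cells, fell by 1.36 (SE 0.05, adjusted p = 6.4e-11), from 233.4 to 90.6 CPM. Gata3, Grhl1 and Ovol2 fell by 0.98, 1.04 and 0.99. Ovol1 (0.62) and Grhl2 (-0.88) complete the counts and were named after their values were seen, and Ovol1 was under 1.5-fold under total-count scaling (0.40), without time 0 replicate 2 (0.55) and without 24-hour replicate 2 (0.46).

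**Figure D4:**
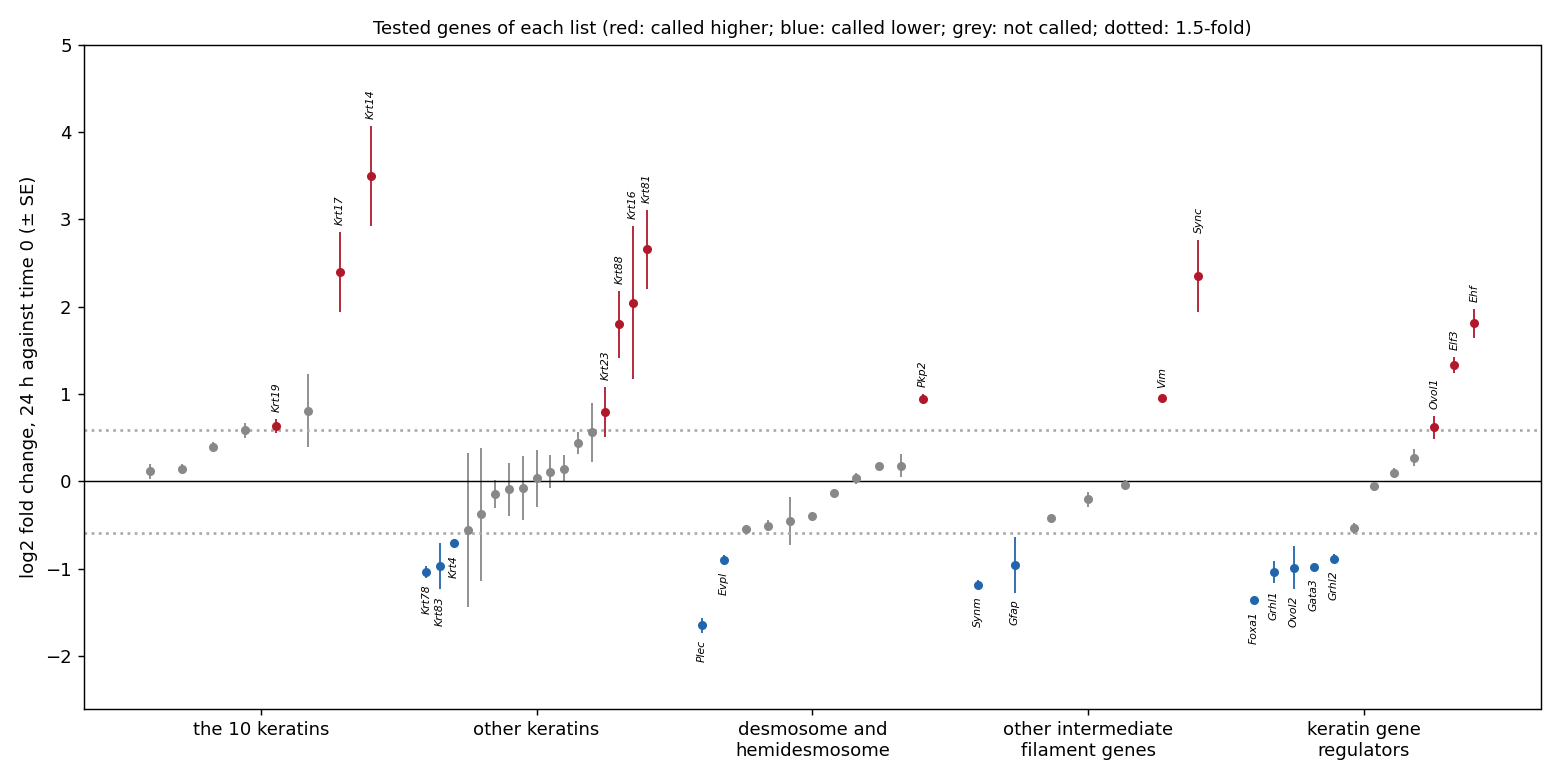
log2 fold change with SE at 24 hours over time 0 (edgeR, 3 against 3 libraries) of the tested genes of 5 gene lists, where red marks genes called higher, blue genes called lower, grey genes not called and dotted lines 1.5-fold. The called genes among the 10 keratins are Krt19 (0.64), Krt17 (2.40) and Krt14 (3.49), and the lowest value shown is that of Plec (-1.65).

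Over the 9 libraries, the log2 CPM of Krt8 was most like that of Itga3, an integrin chain of epithelial adhesion (Pearson r = 0.99), Dusp6, a phosphatase of ERK (0.98), and Tmem63a (0.98), among 10840 genes. For Krt18 the most similar genes were Nvl (0.93), Noc4l (0.92) and Fah (0.92). Krt18 itself had 2 to 22 counts per library, so counting error weighs on its values. These values describe 9 libraries that share 3 times.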

How the data were processed

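The authors prepared TruSeq mRNA libraries of MyC-CaP cells, sequenced them as paired-end reads, trimmed the reads with Cutadapt, aligned them with STAR to GRCm38 and counted them per gene with featureCounts. The deposited values are raw counts, before normalization. Strand and multimapping settings of the counting are not given in the sources used here. Gene lengths and shared 75-base stretches came from GENCODE release M21 (the authors used M24), in which 15374 of 15384 genes were found.

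In R 4.3.3, the whole table was fitted with edgeR 4.0.16 (filterByExpr, TMM, quasi-likelihood test), with 6 libraries per comparison. A call needed 1.5-fold and an adjusted p of at most 0.05 (Benjamini-Hochberg). For CPM, TMM factors were taken over 9 libraries. The spread of replicates exceeded counting noise, with chi-square values per degree of freedom between 3.41 and 17.5. Alternatives were DESeq2 1.42.0, limma-voom (limma 3.58.1), RLE, upper-quartile and total-count scaling, other filters, 1 fit of 9 libraries, the replicate number as a block, a length and GC correction (loess, span 0.3) and leaving out each library. Scripts were tested on simulated data. Exact intervals are binomial on summed counts and leave out the spread between libraries.

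The members and lists were chosen with earlier results of these data known. Named were the 10 members, other keratins called in a comparison or with at least 1 CPM, and up to 6 called genes of each other list. Likeness was read among genes with at least 10 counts in every library. No protein sequences were used here. Some marker genes are not reported here.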

Additional observations from a re-analysis of the deposited data

Results flagged for a closer look

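Each of the following genes differed between 24 and 12 hours in the direct comparison of those times (edgeR's quasi-likelihood test, 3 against 3 libraries). Among the 10 keratins these were Krt14 (log2 fold change of 24 over 12 hours 1.63), Krt17 (2.53) and Krt18 (1.71), all low in counts. These genes and Krt88 had too few counts to be tested at 12 hours over time 0 and entered the test through the 24-hour libraries, where they were highest. Among the other keratins they were Krt78 (-0.81), Krt81 (0.79), Krt83 (-1.01), Krt87 (1.17) and Krt88 (0.87). The calls of Krt81 and Krt88 held in 6 and 5 of 11 alternatives and in 1 of 6 fits with a library left out each, and were lost with DESeq2, total-count scaling, no filter and the replicate block. That of Krt87 was lost without 12-hour replicate 1 (edgeR adjusted p = 0.074) or 24-hour replicate 1 (0.053). Krt81, Krt83 and Krt87 share 35.5%, 12.5% and 22.4% of their 75-base stretches with other genes. The groups of 3 libraries were too small for a test of single outlying libraries.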

How the results depend on the processing

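The calls of Krt14, Krt17 (24 hours over both times) and Krt18 (24 over 12 hours) held in the 10 alternatives that tested them and with any 1 library left out (log2 fold changes of 3.24 to 3.92 for Krt14 and 2.02 to 2.93 for Krt17 at 24 hours over time 0). These genes entered the test through the 24-hour libraries, where they were highest, so this describes the fits and is not support for a rise. Of the 10 keratins, 1 was called at 24 hours over time 0 and 0 at 24 over 12 hours where at least 10 counts in every library were required, since fewer genes were tested, and 6 and 6 by adjusted p alone. With 1 library left out there were 2 to 4 and 3 to 4. Under total-count scaling, which put the median of all genes at -0.24 at 24 hours over time 0 (-0.02 with TMM) and at -0.22 over 12 hours (0.0039 with TMM), Krt15 reversed to -0.10 and -0.17 and Krt80 to -0.079 and -0.13. All called genes then split into 698 higher and 3008 lower at 24 hours over time 0, against 1374 and 1924, and into 1457 and 1454 with the length and GC correction. With that correction Krt15 reversed at 24 over 12 hours (-0.0345, and -0.0353 with the replicate block). Vim at 12 hours over time 0 reversed under total-count scaling (-0.0038), with the correction (-0.0145), with correction and block (-0.0151) and without 12-hour replicate 3 (-0.0154 to 0.0394 over the libraries left out). With 1 library left out, other genes that reversed at 12 hours were Krt83 (-0.15 to 0.47), Gfap (-0.27 to 0.097), Grhl1 (-0.0437 to 0.0929) and Grhl2 (-0.0518 to 0.0071), none of them called there. The cause was not tested.

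At 12 hours 1 of 15 tested other keratins was called, where 1.60% of all tested genes were. There were 0 with the filter of 10 counts, 2 with limma-voom and 0 to 2 with 1 library left out. By adjusted p alone 4 passed, where 10.3% of all tested genes did. At 24 hours over time 0 (7 of 17 tested, against 28.8% of all tested genes) 4 were called with the filter of 10 counts. At 24 over 12 hours 5 of 15 were called, against 25.7% of all tested genes. There were 3 with DESeq2, without a filter, with the replicate block, and with correction and block. With 1 library left out there were 2 to 4. Of 11 tested junction genes, 1 passed by adjusted p alone at 12 hours. At 24 hours over time 0, 7 were called under total-count scaling and 8 passed by adjusted p alone. At 24 over 12 hours these were 6 and 8. By adjusted p alone, 70.9% of all tested genes passed at 24 hours over time 0 and 71.3% at 24 over 12 hours. Total-count scaling called 3706 of 11444 tested genes in the first of these comparisons and 3314 of 11394 in the second. Of 7 tested other filament genes, 2 passed by adjusted p alone at 12 hours. At 24 over 12 hours 4 were called, against 25.7% of all tested genes. There were 2 with the correction, 2 with correction and block and 2 to 4 with 1 library left out. Of the regulators, 4 of 12 passed by adjusted p alone at 12 hours and 9 of 13 at 24 over 12 hours. By CPM without length, type II over type I was 1.37, 1.26 and 1.30 and basal over simple 0.425, 0.442 and 0.330 at the 3 times.

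Same-numbered libraries did not deviate together (correlations of -0.098 to 0.056), so the numbers are not read as pairs, and the replicate block is given as an alternative. With the block, 3247 genes were called at 24 hours over time 0 against 3298 without it.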
